A study of Homo sapiens with 18 samples.

Results

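The probe sets described here belong to 46 genes of pre-mRNA splicing, whose symbols start with HNRNP, SRSF, SNRP, SF3A or SF3B. A probe set was taken where the array's annotation gave it exactly 1 such gene and no pseudogene, which left 105 probe sets of 22283 and 46 genes of the 11963 that had a probe set of their own. The HNRNP family held 18 genes and 48 probe sets, the SRSF family 9 and 26, the SNRP family 11 and 16, and the SF3A and SF3B genes, together called SF3 below, 8 and 15. They were measured in SH-SY5Y, a human neuroblastoma line with noradrenergic features, either untreated or exposed to sarin at 5 ppm. Sarin is an organophosphate nerve agent whose main target is acetylcholinesterase. RNA from untreated and exposed cells at 3, 24 and 48 h was read on Affymetrix arrays, 3 in each of 6 groups. The labels name 6 flasks beside these 3 arrays, and the spread that enters the p-values may therefore be technical.

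Splicing removes introns from pre-mRNA in the spliceosome, a machine built on each intron from small nuclear ribonucleoproteins. In most of these snRNPs a small nuclear RNA sits in a ring of Sm proteins. The ring is encoded by SNRPB, SNRPD1, SNRPD2, SNRPD3, SNRPE, SNRPF and SNRPG. Particle-specific proteins are added, such as SNRPA and SNRPC in U1 and SNRPA1 and SNRPB2 in U2. The U2 particle also carries the complexes SF3a and SF3b, which sit at the branch point of the intron. SR proteins, the SRSF genes, bind exons and mostly favour use of nearby splice sites, whereas hnRNP proteins coat nascent RNA and often oppose them. In neurons and neuroblastoma cells the balance of these proteins sets which exons of neuronal transcripts are kept.

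Of the markers of a noradrenergic cell, PHOX2A, GATA2, GATA3, ISL1, DBH, CHGA, CHGB, STMN2, GAP43 and ELAVL4 were above background on 18 of 18 arrays, HAND2 on 16, and TH, tyrosine hydroxylase, on 0 of 18. The 12 markers of substrate-adherent, mesenchymal type cells were above background too. VIM, COL1A1, COL1A2, COL3A1, CD44, LGALS1, PRRX1 and TWIST1 were so on 18 arrays, SNAI2 on 17, FN1 on 16, ANXA1 on 15 and YAP1 on 14. Of 5 glial markers, MBP was above background on 18 of 18 arrays, GFAP on 11, AQP4 on 5, SOX10 on 1 and S100B on 0. Of 5 blood and endothelial markers, HBB and PECAM1 were above it on 18, PTPRC on 5, and CD14 and VWF on 1. The 3 arrays of sarin at 48 h stood apart from the other 15. The ratio of 3′ to 5′ signal of GAPDH was 2.15 to 2.30 on them against 0.696 to 1.17 elsewhere, that of ACTB 3.68 to 4.67 against 0.790 to 1.64, and their median signal was 534.5 to 551.6 against 290.2 to 413.9. A 3′ to 5′ ratio of this kind rises when RNA is fragmented or copied only in part. The background, taken as the 90th percentile of bacterial probe sets with no target in the sample, was 410.7 to 443.2 on these 3 arrays against 97.0 to 182.9 on the others. The mean signal without the extreme probe sets was 799.8 to 799.9 on every array.

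At 24 h, 7 of the 46 splicing factor genes were higher after sarin, 0 were lower and 39 did not pass the threshold, an adjusted p under 0.05 in limma over 7178 genes. Of all genes tested, 4.11% were higher by the same threshold and 4.56% lower. The 7 were HNRNPUL1, HNRNPM, HNRNPH3 and HNRNPA0 of the hnRNP family, SNRPB2 and SNRPA of the snRNP proteins, and SF3B1. The median change on the log2 scale was 0.27 over the 46 genes and -0.07 over all genes tested. At 48 h the split was the opposite, with 33 of the 46 lower, 3 higher and 10 not past the threshold. A large part of the array moved at 48 h: 37.8% of all genes tested were lower and 32.9% higher. In the top 20% of genes by level in untreated cells, 78.6% of all genes were lower at 48 h. Of the 37 members in that group, 28 were lower, so their share was not above that of genes of like level. At 3 h, 0 of 46 passed, as did 0.0% of all genes tested in either direction. In whole cultures, fewer cells of a type and less RNA per cell cannot be told apart.

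**Figure D1:**
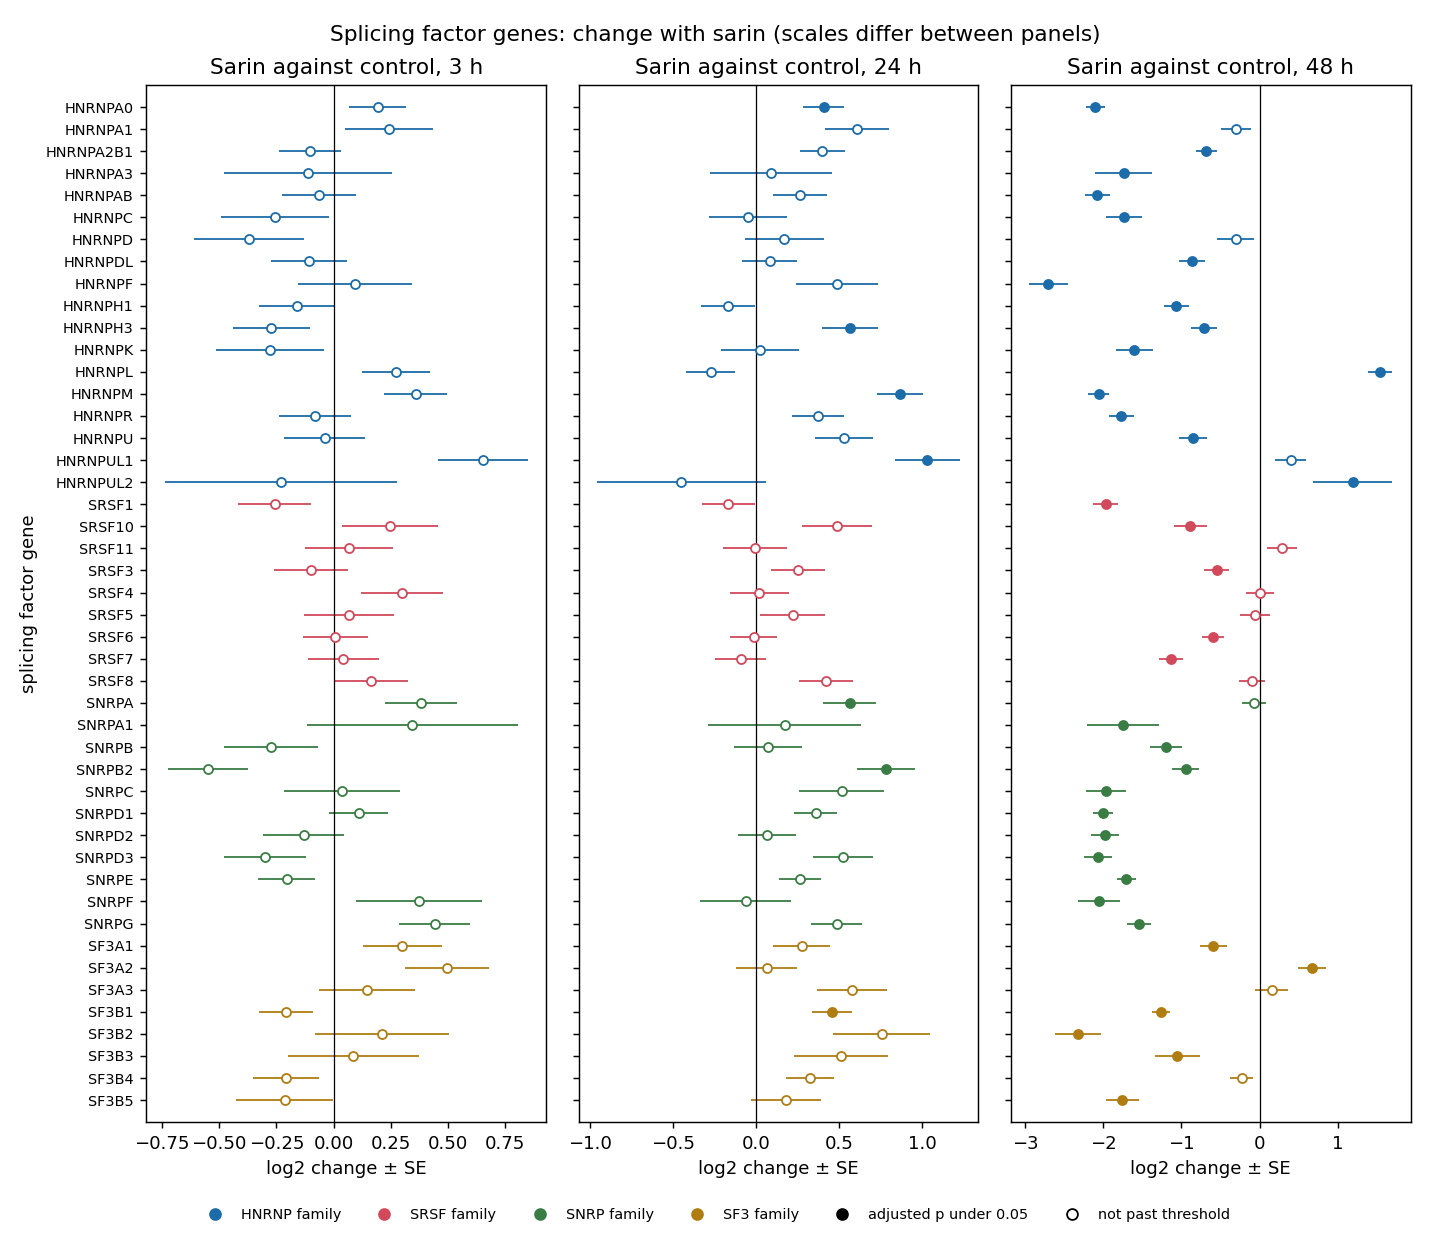
Change in signal after sarin for the 46 splicing factor genes, grouped by family, as log2 difference from untreated cells of the same time with its standard error, in 1 panel each for 3, 24 and 48 h. Filled marks passed an adjusted p of 0.05: 0 genes at 3 h, 7 at 24 h, all higher, and 36 at 48 h, 33 of them lower. The horizontal scales differ between panels.

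At 3 h the changes were small and lay on both sides of 0. The median over the 46 genes was 0.02, against -0.01 over all genes tested, and family medians ran from -0.09 for HNRNP to 0.12 for SF3. An unadjusted p under 0.05 was reached by 6 of 46 members and by 747 of 7178 genes, and 0 members passed after adjustment in limma. HNRNPUL1, a relative of the nuclear scaffold protein HNRNPU, read 1695, 1092 and 1075 in untreated cells and 2308, 2043 and 1660.0 after sarin. These groups overlapped by 1 untreated array, and the difference was 0.65 ± 0.20 on the log2 scale (± is the standard error throughout; limma adjusted p = 0.314).

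SNRPB2, the B″ protein of the U2 particle, read 8266, 8359 and 11986 in untreated cells at 3 h and 6688, 6592.5 and 5998 after sarin. The groups did not overlap, and the difference was -0.55 ± 0.17 (adjusted p = 0.331). Groups that did not overlap with the sarin arrays higher were seen for 6 of 46 members and 7.13% of all genes tested. SF3A2, a subunit of SF3a, was one of these, at 877, 931 and 692 untreated and 1141, 1287 and 1097 with sarin (0.50 ± 0.18, adjusted p = 0.356). The other members with the smallest p in their families also missed the threshold. SNRPG of the Sm ring differed by 0.44 ± 0.15 (adjusted p = 0.347), HNRNPM by 0.36 ± 0.14 (0.363), SF3A1 by 0.30 (0.58), SRSF4 by 0.30 (0.591) and SRSF1 by -0.26 (0.612). The sign of SRSF1 turned with the mean of all its probe sets, to 0.045.

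At 24 h the hnRNP genes held the largest rises. HNRNPUL1 read 1494, 1062 and 1004 in untreated cells and 2009.6, 2852 and 2419 after sarin. Each sarin array was above each untreated one, and the rise was 1.03 ± 0.20, or 2.04-fold (adjusted p = 0.00334). HNRNPM, which binds GU-rich RNA and regulates exon choice, read 6108, 4878 and 4622.5 without and 9983, 9469.6 and 8889 with sarin. Its lowest sarin array lay well above its highest untreated array, and it rose by 0.87 ± 0.14, or 1.82-fold (adjusted p = 0.000931). Both kept their call when any 1 of the 6 arrays was left out, with adjusted p of at most 0.0312 and 0.00905. Both lost it with arrays scaled to the hybridisation spike-ins (0.102 and 0.148), and HNRNPM also where its probe sets were averaged, at 0.18 (adjusted p = 0.723). The other HNRNPM probe set in that average, 214918_at, went the other way at 24 h, at -0.51, and did not pass. Its signal was low at 3 h, where it averaged 65.8 after sarin and 65.9 untreated, above background on 0 and 1 arrays.

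HNRNPH3, a small member of the hnRNP H and F group that binds runs of G, read 2146, 2704 and 2897 in untreated cells at 24 h. After sarin it read 4327, 3726 and 3412.5, above every untreated array, a rise of 0.57 ± 0.17 (adjusted p = 0.0422). HNRNPA0, of the A and B group that binds AU-rich RNA, went from 3557, 3345 and 3021 to 4366.5, 4326 and 4451, and these groups did not overlap either. Its rise of 0.41 ± 0.13 lay close to the threshold (adjusted p = 0.0482). Both calls were lost without any 1 of the 6 arrays of the time, at adjusted p of up to 0.169 for HNRNPH3 and 0.150 for HNRNPA0. Against the untreated cells of 3 and 48 h in place of 24 h, HNRNPA0 differed by 0.02 (adjusted p = 0.949). On the second probe set of HNRNPA0 the difference from untreated cells of 24 h was 0.05.

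The other abundant hnRNP genes stayed short of the threshold at 24 h. HNRNPA1, a repressor of exon inclusion and one of the most abundant hnRNP proteins, read 3289.8, 3710.0 and 4798 untreated and 6257, 5772 and 5766 after sarin. The groups did not overlap, and the difference was 0.61 ± 0.19 (adjusted p = 0.0529). HNRNPU, the scaffold protein, read 10547, 9796 and 7689.9 and 14382, 13617 and 12214, also without overlap (0.53 ± 0.18, adjusted p = 0.0649). HNRNPA2B1 differed by 0.40 ± 0.13 (adjusted p = 0.069). HNRNPC, which binds runs of U, and HNRNPK, which binds runs of C, differed by -0.05 ± 0.23 and 0.02 ± 0.24. The sign of HNRNPC turned with arrays centred on their median, to 0.26, and that of HNRNPK with quantile normalization, to -0.17.

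Among snRNP proteins at 24 h, SNRPB2 read 5378, 5665 and 5833 in untreated cells and 8905, 9969 and 10208 after sarin. The sarin arrays were all higher, with a rise of 0.78 ± 0.17 or 1.72-fold (adjusted p = 0.0102). Untreated cells themselves were lower at 24 h than at 3 h for this gene, with a change of -0.74 ± 0.17 (adjusted p = 0.0186). Against the untreated cells of 3 and 48 h the 24 h sarin arrays differed by 0.30 (adjusted p = 0.323), and without replicate 2 of sarin at 24 h the call was lost by a narrow margin. SNRPA, the U1 protein that binds a stem-loop of U1 RNA, went from 3737, 2537 and 2961 to 4401, 4824.5 and 4276. The groups did not overlap, and the rise was 0.56 ± 0.16 (adjusted p = 0.0324). That call was lost in 5 of 6 fits without 1 array, those other than without replicate 1 of the untreated cells, at adjusted p from 0.0604 to 0.174.

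The other snRNP proteins did not pass at 24 h. Of all 11 in the family, SNRPB2 and SNRPA included, 10 had positive differences, against 3153 of all 7178 genes tested. SNRPG, of the Sm ring, read 7444, 5271 and 6157 without and 9051, 9301 and 7889 with sarin, separate groups with a difference of 0.49 ± 0.15 (adjusted p = 0.0549). SNRPD3, another Sm protein, differed by 0.52 ± 0.18 (adjusted p = 0.0723). SNRPC, which helps U1 hold the 5′ splice site, read 2745, 2404 and 3128.5 and 3977, 3960.4 and 3842. Its groups were separate, but the difference of 0.51 ± 0.25 did not pass (adjusted p = 0.204).

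All 8 SF3 genes had positive differences at 24 h, against 3153 of all 7178 genes tested, and 1 passed. SF3B1, the largest subunit of SF3b and the one that clamps the branch point, read 8726, 8884 and 8705 in untreated cells and 12857, 11963 and 11389 after sarin. The untreated arrays were tightly grouped and below every sarin array, with a rise of 0.46 ± 0.12 or 1.37-fold (adjusted p = 0.0235). The call was lost in 5 of 6 fits without 1 array, those other than without replicate 3 of sarin, at adjusted p from 0.0546 to 0.105. Where its 4 probe sets were averaged the difference was 0.03 (adjusted p = 0.887).

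SF3B2, which binds SF3B4 within SF3b, read 2282, 2231 and 3262 untreated and 4814, 4589 and 3649.9 with sarin. Its difference was larger than that of SF3B1, at 0.76 ± 0.29, but the untreated arrays were spread and it did not pass (adjusted p = 0.11). SF3A3, of SF3a, went from 1013, 1199 and 995 to 1778, 1539 and 1491 with no overlap (0.58 ± 0.21, adjusted p = 0.0904). SF3A1, the SF3a subunit that contacts U1 and U2, differed by 0.27 ± 0.17 (adjusted p = 0.323).

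None of the 9 SR protein genes passed at 24 h, and 2 of them reached an unadjusted p under 0.05. Their median difference was 0.02, with a range from -0.17 to 0.49, and it turned to -0.08 with quantile normalization. SRSF8 had the smallest p of the family and read 2669, 2616 and 2651 untreated and 3668, 3114 and 3919 with sarin. Its groups did not overlap (0.42 ± 0.16, adjusted p = 0.106). SRSF10, which acts as a repressor of splicing when dephosphorylated, differed by 0.49 ± 0.21 (adjusted p = 0.146), with 1 sarin array, at 2910.1, well above the other arrays.

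**Figure D2:**
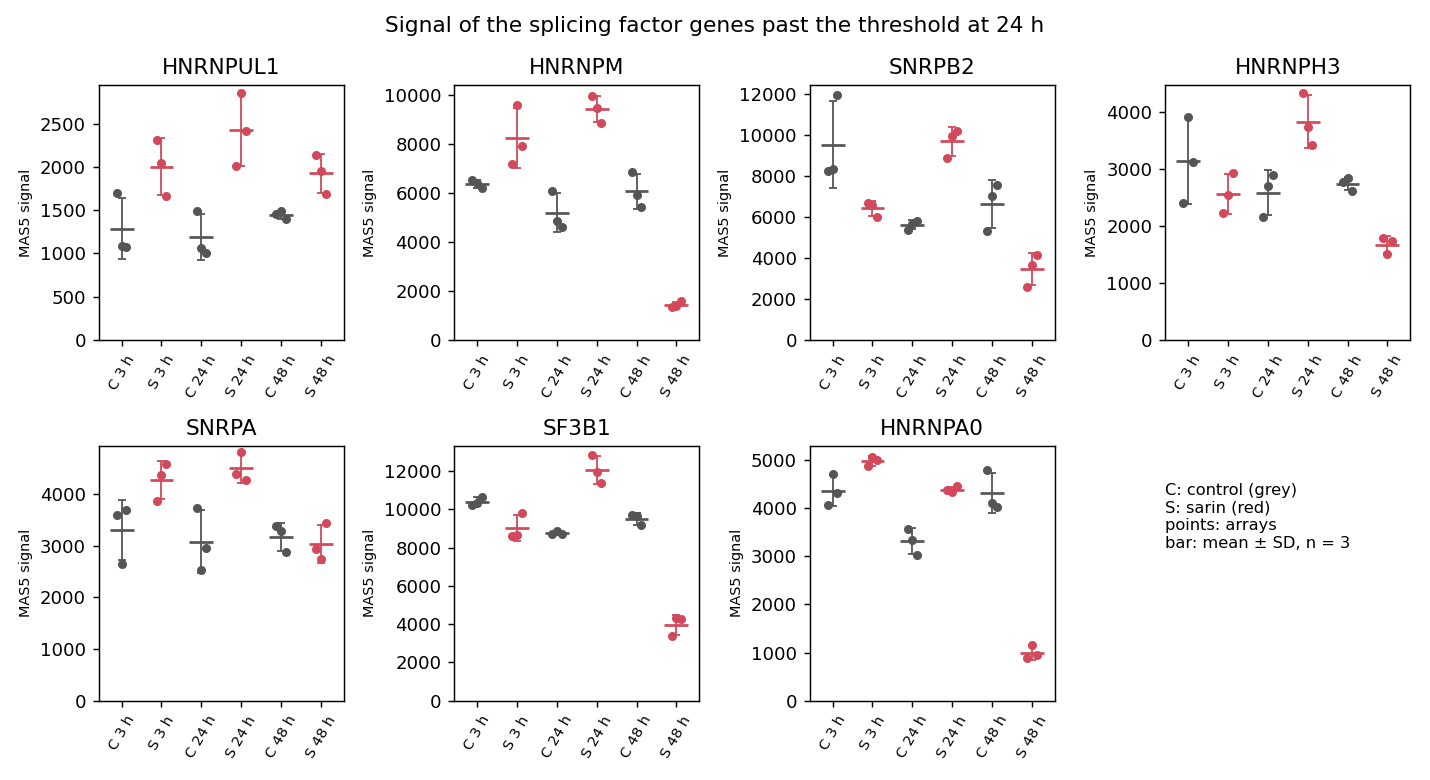
Deposited signal on each array for the 7 splicing factor genes that passed at 24 h, in untreated and sarin-exposed cells at 3, 24 and 48 h. Each point is 1 array and each bar the mean with its SD over 3 arrays. At 24 h every sarin array lies above every untreated array for all 7, and at 48 h the highest sarin arrays of HNRNPM and HNRNPA0 read 1581 and 1158, below every untreated array.

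By family, HNRNP, SNRP and SF3 had medians of 0.32, 0.36 and 0.39 at 24 h, and 4 of 18, 2 of 11 and 1 of 8 genes passed. SRSF had a median of 0.02 and 0 of 9. The difference between families was not tested. Groups that did not overlap with sarin higher were found for 24 of 46 members, against 17.2% of all genes tested. Because 37 of the 46 members were in the top 20% of genes by level in untreated cells, that group is the closer background. Over all its genes the median at 24 h was 0.10 and 8.57% passed as higher. Over the 37 members in it the median was 0.26, and 6 passed.

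**Figure D3:**
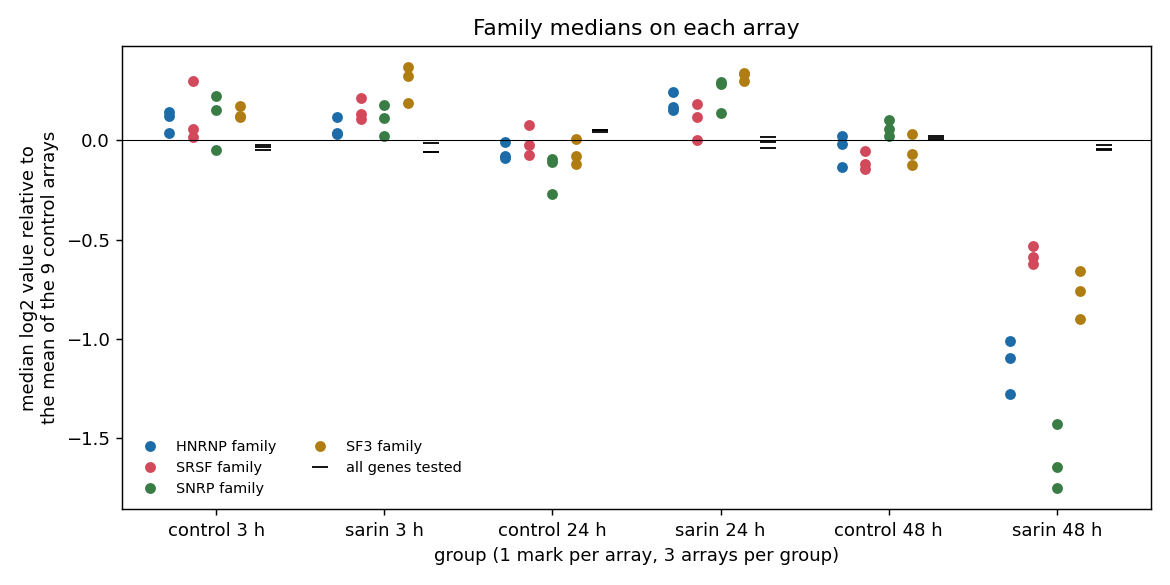
Median log2 signal of each splicing factor family on each array, relative to the mean of the 9 untreated arrays, with 1 mark per array and black dashes for all genes tested. At 24 h the sarin arrays lie at 0.15 to 0.24 for HNRNP and 0.30 to 0.34 for SF3, and at 48 h at -1.28 to -1.01 and -0.90 to -0.66.

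The family medians can also be read array by array, relative to the mean of the 9 untreated arrays. For SF3 the untreated arrays at 24 h lay between -0.12 and 0.01 and the sarin arrays between 0.30 and 0.34. For SNRP these ranges were -0.27 to -0.09 and 0.14 to 0.29, and for HNRNP -0.09 to -0.01 and 0.15 to 0.24. For SRSF they overlapped, at -0.08 to 0.08 and 0.00 to 0.18. The median of all genes tested stayed between -0.06 and 0.05 on all 18 arrays.

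The count at 24 h moved with the scaling. It was 2 with quantile normalization, 25 with arrays centred on their median and 0 with arrays scaled to spike-ins, all higher. Under quantile normalization the median of the members fell to 0.15, that of all genes was -0.02, and 146 genes were higher and 164 lower. Under centring the median of all genes rose to 0.23 and that of the members to 0.57, and the calls over all genes went from 295 higher and 327 lower to 1150 and 112. With spike-ins those were 17 and 8, with medians of -0.03 for all genes and 0.31 for members. The spike-ins themselves had a mean log2 signal of 11.97, 11.15 and 10.89 on the untreated arrays at 24 h. On the sarin arrays of that time it was 11.43, 11.23 and 11.23. Without single arrays the count was 6, 3 and 4 for untreated replicates 1, 2 and 3, and 3, 2 and 4 for sarin replicates 1, 2 and 3. Without the 48 h sarin arrays in the fit it was 14, and over all genes 480 were higher and 524 lower. The sarin arrays at 24 h also had a GAPDH ratio of 1.05 to 1.17 against 0.811 to 0.941 in untreated cells, and with that ratio as a covariate 5 members passed. Over all genes that covariate gave 201 higher and 254 lower. Summed signal of 12 noradrenergic markers was 111097 to 113415 on the 24 h sarin arrays against 88702 to 99569.6, and that of 12 markers of substrate-adherent cells 39593 to 40017 against 56617 to 58414. The sum of 5 glial markers was 482.5 to 538.5 against 830.9 to 1043.8, and that of 5 blood and endothelial markers 933.5 to 1259.6 against 1545 to 1936. The part of these markers in the result was not tested.

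The promoters of the genes that passed at 24 h are shown because these genes were higher together. RefSeq promoters (GRCh38.p14) were matched for 43 of the 46 members and for all 7. The 250 bases upstream of the start are printed 5′ to 3′ on the strand of the gene for the gene with the smallest adjusted p in the HNRNP, SNRP and SF3 families. Capitals mark matches to the motifs searched on both strands, which were GGGCGG (a GC box), CCGGAAG (an ETS type of site), CCAAT (the site of factor NF-Y), CACGTG (an E-box) and TATAAA. HNRNPM lies at chr19:8444725-8444974 on the plus strand, SNRPB2 at chr20:16729776-16730025 on the plus strand, and SF3B1 at chr2:197435029-197435278 on the minus strand.
HNRNPM: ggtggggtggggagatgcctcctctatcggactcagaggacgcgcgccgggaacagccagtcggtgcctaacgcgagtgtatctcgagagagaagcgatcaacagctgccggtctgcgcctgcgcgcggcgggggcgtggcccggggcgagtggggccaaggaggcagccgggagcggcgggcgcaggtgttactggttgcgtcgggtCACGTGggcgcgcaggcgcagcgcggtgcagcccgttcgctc
SNRPB2: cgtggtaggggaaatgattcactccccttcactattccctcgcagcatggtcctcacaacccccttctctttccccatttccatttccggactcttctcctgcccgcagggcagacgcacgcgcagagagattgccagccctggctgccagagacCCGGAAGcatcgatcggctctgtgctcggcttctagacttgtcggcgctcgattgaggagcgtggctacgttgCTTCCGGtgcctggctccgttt
SF3B1: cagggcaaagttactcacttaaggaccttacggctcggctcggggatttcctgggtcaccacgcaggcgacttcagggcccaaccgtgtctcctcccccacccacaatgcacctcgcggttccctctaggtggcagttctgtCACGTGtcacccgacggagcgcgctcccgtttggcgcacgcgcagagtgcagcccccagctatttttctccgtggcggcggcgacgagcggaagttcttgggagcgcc

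HNRNPM and SF3B1 each held CACGTG once, and SNRPB2 held CCGGAAG 2 times, 1 on each strand, so no motif of the 5 was shared by all 3. Over the 7 genes GGGCGG was found in 4 promoters, CACGTG in 3, CCAAT in 3, CCGGAAG in 1 and TATAAA in 0. Over the 43 matched members CCGGAAG was found in 16, or 37.2%, against 8.82% of 27305 promoters of the same length. It lay in 7 SNRP, 5 SF3, 2 HNRNP and 2 SRSF promoters. The motif GGGCGG was found in 58.1% of members against 42.3% of all, CCAAT in 41.9% against 33.0%, CACGTG in 6 of 43 members against 6.49%, and TATAAA in 6 of 43 against 11.1%. Their median GC content was 61.6% against 58.0%. These matches describe letters in a window and not binding.

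From 3 to 24 h, the effect of sarin differed in 1 of 46 members, SNRPB2, against 0.390% of genes higher and 0.446% lower over all genes tested. Its difference of -0.55 at 3 h and rise of 0.78 at 24 h were 1.33 ± 0.25 apart (adjusted p = 0.0136). That call was lost with quantile normalization (1.07, adjusted p = 0.0870) and with spike-ins (1.35, 0.999). The median of this difference over the 46 was 0.28 and over all genes -0.05. The calls over all genes were 28 higher and 32 lower, which became 11 and 28 with quantile normalization, 129 and 11 with centring on the median, and 0 and 1 with spike-ins.

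At 48 h the snRNP proteins had the lowest family median, -1.75, and 10 of 11 fell. All 7 Sm ring genes were among them. The family share that fell was 90.9%, against 37.8% of all genes tested and 78.6% of those in the top 20% by level. SNRPD1 read 5655, 5306 and 5432 in untreated cells and 1270.5, 1457.5 and 1317 after sarin, narrow and separate groups that differed by -2.01 ± 0.13 (adjusted p = 1.5e-10). SNRPD3 went from 4998.5, 7515 and 6304 to 1254, 1548.5 and 1611 (-2.07 ± 0.18, adjusted p = 7.91e-09). SNRPD2 went from 16471, 17598 and 14237 to 3275, 4441 and 4556 (-1.98 ± 0.18, adjusted p = 1.12e-08). In each the highest sarin array was below the lowest untreated one. SNRPF, SNRPE, SNRPG and SNRPB, the rest of the ring, fell by 2.06, 1.71, 1.54 and 1.20 on the log2 scale, with adjusted p of 2.25e-06, 8.86e-10, 5.62e-08 and 4.4e-05.

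The proteins particular to U1 and U2 included the 1 snRNP gene that did not pass. SNRPC of U1 read 2648, 3892.5 and 3183 untreated and 1059, 440.4 and 1115 after sarin, a fall of -1.97 ± 0.25 (adjusted p = 1.59e-06). SNRPA of U1 read 3378, 3292 and 2872.5 and 2930.4, 2741 and 3451, overlapping groups with a difference of -0.07 ± 0.16 (adjusted p = 0.713). Its sign turned with quantile normalization, to 0.44. For U2, SNRPA1 read 1785, 2587.5 and 2155 and 171, 1137 and 1219, with 1 sarin array at background level. Its difference of -1.75 ± 0.46 (adjusted p = 0.00225) was -0.86 without that array, replicate 1. SNRPB2 read 5307, 7054.5 and 7556 and 2609, 3642 and 4147.5, lower on all sarin arrays (-0.94 ± 0.17, adjusted p = 9.44e-05), and short of the threshold with quantile normalization, at -0.34 (adjusted p = 0.102).

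Of the 18 hnRNP genes, 13 fell at 48 h, 2 rose and 3 did not pass. The share that fell was 72.2%, against 37.8% of all genes tested and 78.6% of those in the top 20% by level. HNRNPM, higher at 24 h, read 6851, 5947 and 5422.5 in untreated cells and 1334, 1402 and 1581 after sarin, a fall of -2.06 ± 0.14 or 4.18-fold (adjusted p = 2.83e-10). HNRNPA0, also higher at 24 h, went from 4798, 4109.6 and 4029 to 884, 1158 and 939.8 (-2.10 ± 0.13, adjusted p = 6.42e-11). HNRNPAB, a member of the A and B group, went from 7244, 8669 and 8259.6 to 1370.4, 2359 and 2095 (-2.08 ± 0.16, adjusted p = 1.83e-09). In all of these the groups were far apart on the probe set used, but the second probe set of HNRNPA0 differed by 0.16 and did not pass. With its probe sets averaged HNRNPM was at -0.48 (adjusted p = 0.125). The other HNRNPM probe set, 214918_at, differed by 1.10 and was above background on 0 sarin arrays and 1 untreated array at 48 h.

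HNRNPF, which binds runs of G, had the lowest difference of the 46 genes at 48 h. It read 2644, 2406 and 2197 in untreated cells and 650.5, 247 and 276 after sarin, where 1 of 3 arrays was above background. The fitted difference was -2.71 ± 0.25 (adjusted p = 1.71e-08). HNRNPC, HNRNPK and HNRNPU read 2871, 3243 and 1932, 4796, 3114 and 3896 and 5169.9, 4663 and 5320.2 after sarin, each lower than all untreated arrays. They differed by -1.74, -1.61 and -0.85, with adjusted p of 2.76e-06, 7.49e-06 and 0.000279. HNRNPA2B1, a partner of HNRNPA1, went from 12144, 11926 and 12967 to 8617.5, 7287 and 7237 (-0.68 ± 0.13, adjusted p = 0.000187). Its sign turned with quantile normalization, to 0.18. HNRNPR, HNRNPA3, HNRNPH1, HNRNPDL and HNRNPH3 fell as well, with changes of -1.77, -1.74, -1.06, -0.86 and -0.71. HNRNPA1 differed by -0.30 ± 0.19 (adjusted p = 0.172), and with quantile normalization by 0.22.

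HNRNPL, which binds CA repeats, was the member with the largest rise at 48 h. It read 2402, 2875 and 3316 in untreated cells and 8272, 9214 and 7536 after sarin, with a wide gap between the groups. The rise was 1.54 ± 0.15, or 2.92-fold (adjusted p = 3.42e-08), and it turned to -0.51 with arrays scaled to spike-ins. HNRNPUL2, a relative of HNRNPU, had low signal in untreated cells, at 240.5, 298 and 193, and read 1272, 968 and 143 after sarin, where 2 of 3 arrays were above background. The groups overlapped, and the difference of 1.19 ± 0.51 was past the threshold (adjusted p = 0.0427). It was lost without any 1 of the other 5 arrays, at adjusted p from 0.0507 to 0.269, and kept without sarin replicate 3, at 2.14. With spike-ins it turned to -0.67. HNRNPUL1, the member with the largest rise at 24 h, read 2138, 1955.5 and 1686 after sarin at 48 h against 1454, 1492 and 1402. That difference of 0.40 ± 0.20 did not pass (adjusted p = 0.0768) and turned to -0.18 with arrays centred on their median.

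In the top 20% of all genes by level in untreated cells, 78.6% fell at 48 h. Of the SF3 genes, 5 of 8 (62.5%) fell at 48 h, 1 rose and 2 did not pass, with a median of -0.82. This rested on the probe set chosen: with all probe sets of a gene averaged 3 fell and 2 rose, with a median of -0.04, and of the 15 single probe sets 6 fell and 5 rose. SF3B2 read 2099, 2970.0 and 2289 untreated and 339.6, 305.5 and 988 after sarin, where 1 of 3 arrays was above background (-2.33 ± 0.29, adjusted p = 1.1e-06). SF3B5, a small subunit of SF3b, went from 4119, 5083 and 3661.5 to 1718, 1237 and 907 (-1.76 ± 0.21, adjusted p = 6.23e-07). SF3B1 went from 9709.6, 9635 and 9166 to 3376, 4309 and 4250.0 (-1.26 ± 0.12, adjusted p = 2.56e-08). The groups were separate for all of these, but SF3B1 turned to 0.27 with its probe sets averaged. SF3B3, where 2 of 3 sarin arrays were above background, and SF3A1 changed by -1.05 ± 0.29 and -0.59 ± 0.17 (adjusted p = 0.00293 and 0.00474), and SF3B3 was at -0.57 without replicate 2 of sarin. SF3A2 rose, from 1059, 995.5 and 863 to 1911, 1345 and 1467, by 0.67 ± 0.18 (adjusted p = 0.00284). That rise shrank to 0.10 (adjusted p = 0.665) with arrays centred on their median and turned to -1.34 with spike-ins.

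Of the SR protein genes, 5 of 9 fell at 48 h, with a median of -0.55 that turned to 0.20 with quantile normalization. The share that fell was 55.6%, against 78.6% of all genes in the top 20% by level. With probe sets averaged 4 fell and 2 rose. SRSF1, which promotes exon inclusion through exonic enhancers, read 5858, 6572 and 6234 in untreated cells and 1829, 1378.5 and 1538 after sarin. On the probe sets used it had the largest fall of the family, -1.97 ± 0.16 (adjusted p = 3.4e-09). Of its 4 probe sets 1 fell and 0 rose, and the highest differed by 0.58. Single probe sets of SRSF10 and SRSF8 were lower still, at -2.78 and -2.65. SRSF7, which also takes part in mRNA export, went from 6439, 8628 and 7957 to 3625, 3093 and 3712 (-1.13 ± 0.15, adjusted p = 2.91e-06). SRSF10 went from 1449, 1346 and 1612 to 966, 788 and 634.5 (-0.89 ± 0.21, adjusted p = 0.000964). SRSF6 and SRSF3 fell too, with changes of -0.60 ± 0.14 and -0.55 ± 0.16 (adjusted p = 0.00096 and 0.00492), and SRSF3 turned to 0.27 with quantile normalization. SRSF4, SRSF5, SRSF8 and SRSF11 did not pass. Whether the families differed from each other was not tested.

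Genes of like level give a background for the falls at 48 h. In the top 20% by level in untreated cells, 78.6% of all genes fell, with a median of -1.07, and of the 37 members there 28 fell, with a median of -1.13. In the next 20% the median of all genes was -0.46, and the 6 members had a median of -1.40 with 5 fallen. Arrays that did not overlap and were lower after sarin were found for 35 of 46 members and 36.6% of all genes tested. Calls over all genes were 2365 higher and 2710 lower, which became 1278 and 3821 with arrays centred on their median, and 18 and 6055 with spike-ins. Medians of all genes then shifted to -0.65 and -2.07, and those of the members to -1.63 and -3.06. Quantile normalization moved the other way, to a median of -0.52 for the members and -0.23 for all genes, and under it 26 members fell and 7 rose. With the GAPDH ratio as a covariate 18 of the 46 passed, all lower, 17 of them among the 36. Over all 7178 genes that covariate gave 239 higher and 704 lower. On the sarin arrays at 48 h the summed noradrenergic signal was 51044 to 60812 against 85528 to 87616, and the adherent signal 21827 to 22844 against 59718 to 79399. The glial sum was 1584 to 1879 against 708.0 to 924.0, and the blood and endothelial sum 2785 to 3158 against 1167 to 1804, while the background itself was higher. Their part in the result, and that of the 3′ to 5′ ratios, was not tested.

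The same gene could read differently from probe set to probe set. Of the 30 genes with more than 1 probe set, 16 had both signs at 48 h, and 7 had probe sets past the threshold in both directions: HNRNPD, HNRNPDL, SRSF6, SRSF7, SRSF10, SF3B1 and SF3B3. Of all 4310 genes with several probe sets, 40.2% had both signs at 48 h and 14.9% had calls in both directions. For HNRNPD the probe set that rose was not above background in either group. At 24 h, 17 members had both signs and 0 had calls in both directions, against 48.4% and 0.0696% of the 4310. Over all 105 probe sets, 17 rose and 58 fell at 48 h, against 40.7% and 22.4% of 19065 probe sets. Those 19065 had no level filter, and the split at 48 h turned with level. In the gene fit, 6.13% rose and 78.6% fell in the top 20% by level in untreated cells. In the lowest 20% of genes tested, 64.8% rose and 6.27% fell. The top 20% held 37 of the member genes, so the share over all probe sets is not a background of like level. Among genes whose probe sets differed, SF3B1 is the clearest case. Beside the probe set above, 214305_s_at read 2517, 2184 and 2414 in untreated cells and 6386, 6330.2 and 5973 after sarin, a rise of 1.39 ± 0.15 (adjusted p = 3.36e-07). For 201070_x_at the signals were 1704, 2129 and 2060.3 and 4107, 4083 and 3949.6 (1.04 ± 0.14, adjusted p = 5.46e-06). The fourth, 211185_s_at, differed by -0.08. With spike-ins both rises turned, to -0.66 and -1.0.

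**Figure D4:**
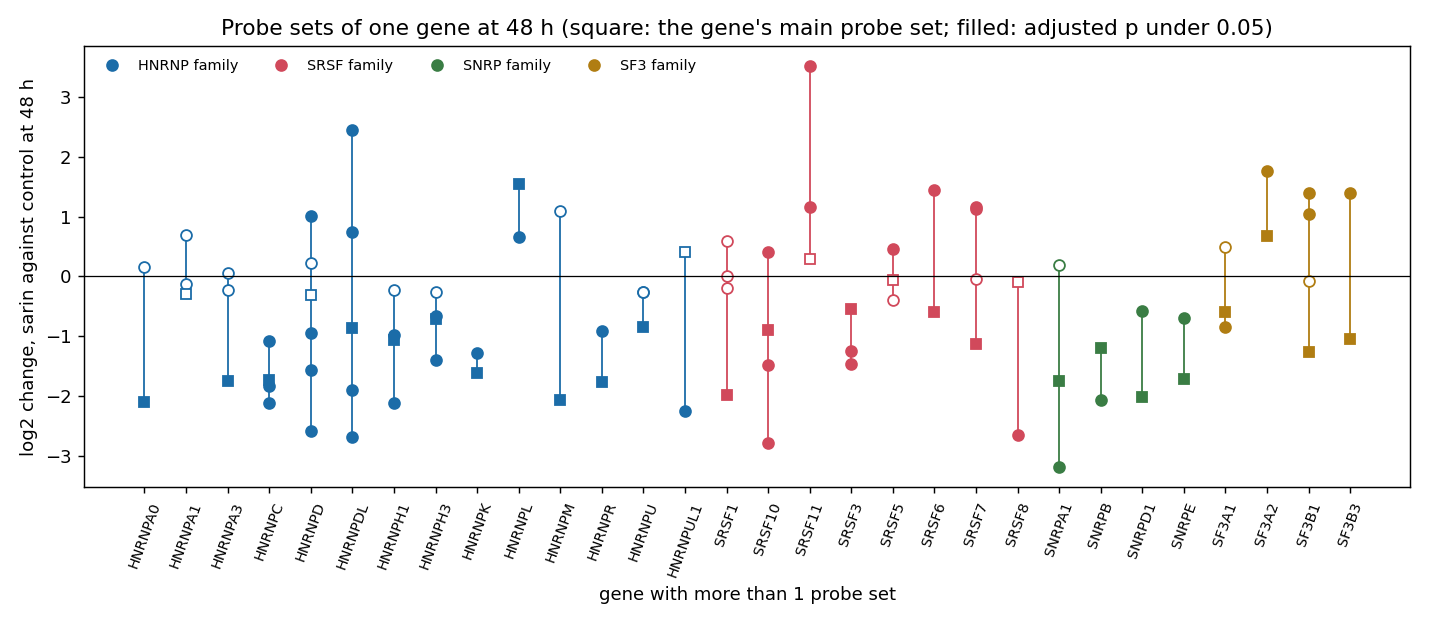
Change at 48 h, as log2 difference of sarin from untreated cells, of each probe set of the 30 splicing factor genes that have more than 1. A square marks the probe set used for the gene, and filled marks passed an adjusted p of 0.05 over 19065 probe sets. For SF3B1 the used probe set lies at -1.26 and 2 others at 1.39 and 1.04.

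Other genes showed the same disagreement at 48 h. SRSF7 fell on the probe set used, whereas 213649_at read 1849.7, 2504 and 2230.2 untreated and 4624, 4936 and 5167 after sarin (1.17 ± 0.18, adjusted p = 2.02e-05). For SF3B3, 200688_at read 409, 420.3 and 515 and 1042, 1088 and 1538, a rise of 1.40 ± 0.27 (adjusted p = 0.000228). With spike-ins these turned to -0.88 and -0.60. SRSF11, which did not pass on the probe set used, read 285, 295 and 356 and 3254, 3346 and 4713 on 213742_at. This was the largest rise of any member probe set at 48 h, 3.51 ± 0.24 (adjusted p = 8.49e-10). HNRNPDL was split further. On 214379_at its untreated arrays were not above background, at 122, 84.3 and 99.3, and the sarin arrays read 719, 565 and 588, at least 4.28-fold higher (adjusted p = 2.32e-05). On 209068_at the untreated arrays read 1928, 1842 and 1658.5 and the sarin arrays, at 176, 261 and 409.8, were not above background, at least 4.16-fold lower (adjusted p = 7.87e-09). Such a bound sets the mean of the group with signal against the background of the other group's arrays. For SNRPA1, 216977_x_at was not above background after sarin and at least 3.68-fold lower. For HNRNPUL1, 209675_s_at was so at least 1.39-fold.

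At 24 h the probe set fit called 8 of 105 member probe sets higher and 0 lower, against 1.70% and 1.89% of all 19065. Those 19065 had no level filter. In the gene fit, 8.57% of genes in the top 20% by level were higher at 24 h and 5.36% lower. In the probe set fit 4 further hnRNP probe sets passed whose genes had not passed above. HNRNPU on 200593_s_at read 5049.9, 3284 and 3329 untreated and 7024, 7308 and 6308 after sarin (0.85 ± 0.18, adjusted p = 0.013). HNRNPC on 200751_s_at read 2672.5, 2311 and 2726 and 3618, 4221 and 4329.7 (0.65 ± 0.14, adjusted p = 0.0145). HNRNPK on 200097_s_at read 5552, 4156 and 5315.5 and 7167, 7552 and 7358 (0.56 ± 0.13, adjusted p = 0.0266). In each the sarin arrays were all higher. HNRNPDL on 209067_s_at read 4659, 2718.5 and 3263 and 6361, 6701 and 4868.5, also separate (0.77 ± 0.18, adjusted p = 0.0253). The count was 2 with quantile normalization, 38 with arrays centred on their median and 0 with spike-ins. Without single arrays it was 7, 2 and 4 for untreated replicates 1, 2 and 3, and 3, 1 and 4 for sarin replicates 1, 2 and 3.

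The effects of sarin at 24 and 48 h differed in 38 of the 46 genes, 36 of them lower at 48 h and 2 higher, against 33.2% and 30.5% of all genes tested. Lower were 11 of 11 SNRP, 14 of 18 HNRNP, 6 of 8 SF3 and 5 of 9 SRSF genes. Of the 7 genes higher at 24 h, 5 were lower than untreated cells at 48 h, and 6 had a lower effect at 48 h than at 24 h. These 7 were picked by a high value at 24 h, which this difference subtracts, so a lower value was favoured in advance. HNRNPF, SF3B2 and HNRNPM had the largest such differences, at -3.20 ± 0.35, -3.09 ± 0.41 and -2.93 ± 0.20, and that of HNRNPM was -0.66 (adjusted p = 0.144) where its probe sets were averaged. SNRPB2 differed by -1.73 ± 0.25 (adjusted p = 9.2e-06), and SNRPA by -0.63 ± 0.22 (adjusted p = 0.0185). SNRPA lost the call without replicate 2 of untreated cells at 24 h (-0.50, adjusted p = 0.0623), and was 0.01 with quantile normalization. HNRNPL and SF3A2 went the other way, by 1.82 ± 0.21 and 0.61 ± 0.26, and HNRNPL turned to -0.27 with spike-ins. That of SF3A2 lay close to the threshold (adjusted p = 0.045). It was lost in 8 of 12 fits without 1 array, at adjusted p of up to 0.122, and with quantile normalization, the mean of probe sets and the GAPDH covariate, at 0.0868, 0.110 and 0.449. It turned to -0.26 with centring and -1.44 with spike-ins. The count was 25 with quantile normalization. Over all genes 2189 were higher and 2380 lower, which became 978 and 3866 with centring and 30 and 5234 with spike-ins. Since this difference and that from 3 to 24 h share the 24 h arrays, they are not independent.

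How far untreated cells changed with time in these genes turned on the scaling. From 3 to 24 h, 3 members were lower and 1 higher, against 2.12% and 3.57% of all genes tested. With arrays centred on their median 19 members were lower and 0 higher, and with spike-ins 33 were lower, 12 HNRNP, 8 SNRP, 7 SF3 and 6 SRSF, with a median of -0.89. SNRPB read 19395.5, 14580.1 and 32731 at 3 h and 12188, 13708 and 11215 at 24 h (-0.77 ± 0.21, adjusted p = 0.0344), with 1 array at 3 h far above the rest, without which the difference was -0.45. SNRPB2 and SNRPD3 differed by -0.74 ± 0.17 and -0.66 ± 0.18 (adjusted p = 0.0186 and 0.0359). SRSF11 was higher, from 2194.5, 2729.5 and 1523 to 3552, 3138 and 3546 (0.70 ± 0.19, adjusted p = 0.0376), and turned to -0.07 with spike-ins. Of the 4, 0 were left without replicate 3 at 3 h or without replicate 1 or 2 at 24 h. The count was 2 and 8 without replicates 1 and 2 at 3 h, and 1 without replicate 3 at 24 h. From 3 to 48 h, 0 members passed, 10 at an unadjusted p under 0.05 and 35, all lower, with spike-ins, and 0.279% and 0.209% of all genes tested were higher and lower. Over all genes the calls at 24 h were 256 higher and 152 lower, and 92 and 1155 with centring or 10 and 2593 with spike-ins. At 48 h they were 20 and 15, against 5 and 1 with quantile normalization, 12 and 66 with centring and 3 and 2865 with spike-ins.

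Other genes of splicing and RNA processing were read from 6 lists of 110 tested genes. At 24 h, 11 of 110 rose and 1 fell, against 4.11% and 4.56% of all genes tested. At 48 h 17 rose and 62 fell, against 32.9% and 37.8%, and at 3 h 0 passed. Of 29 proteins of the U2, U5 and tri-snRNP particles and the PRP19 complex, 3 rose at 24 h and 0 fell. DDX23, the helicase of U5 that releases U1, rose by 1.79 ± 0.37 (adjusted p = 0.00642), PRPF31 of the tri-snRNP by 0.62 ± 0.17 and BCAS2 of the PRP19 complex by 0.66 ± 0.17. Of 8 splicing helicases, 2 rose, DHX38 by 1.12 ± 0.26 and DHX9 by 0.69 ± 0.20. Of 9 LSM proteins, most of which form rings like those of Sm proteins and not all of which act in splicing, LSM1 rose by 0.67 ± 0.16. Among 37 other RNA-binding regulators 4 rose, with RBM10 at 1.02 ± 0.21 and PTBP1, the repressor of neuronal exons, at 0.67 ± 0.17. Of 11 exon junction and export genes RBM8A rose by 0.56 ± 0.13 and THOC2 fell (-0.79 ± 0.24). Of 16 SR kinases and snRNP assembly factors 0 passed.

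At 48 h each of these lists had more genes lower than higher, as did all genes tested, of which 37.8% were lower, and those in the top 20% by level, of which 78.6% were. The count was 18 of 29 lower and 1 higher for the U2, U5 and tri-snRNP list, 6 and 1 of 9 for LSM proteins, and 4 and 0 of 8 for helicases. For the exon junction list it was 6 and 3 of 11, for the regulators 19 and 8 of 37, and for kinases and assembly factors 9 and 4 of 16. U2AF1, which binds the 3′ splice site, fell (-1.99 ± 0.19), as did SF1, which binds the branch point before U2 (-1.62 ± 0.12). LSM4 and LSM5 changed by -2.28 ± 0.14 and -2.23 ± 0.16, and TRA2B, an SR-like regulator, by -1.74 ± 0.13. SRRM2, a scaffold of nuclear speckles, rose by 2.63 ± 0.15 (adjusted p = 2.49e-11). Median changes of the 6 lists ran from -1.16 for LSM proteins to -0.45 for the exon junction list.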

How the data were processed

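Per the labels' protocols, total RNA was made into labelled cRNA. The deposited intensity is a linear MAS5 signal per probe set and array, per the submitters' processing notes, with the version, scaling target and any filter not given in the sources used here. Of 22283 probe sets, 68 were controls, 19065 had 1 annotated gene, 1043 had several and 2107 none, and gene values used only those with 1. Where a gene had several, the one highest on average over the 18 arrays on the log2 scale was used. Genes in the upper 60% by that mean (8.49, a signal of 344.7), 7178 of 11963, were tested, and all 46 members were among them.

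From the deposited intensity, log2(signal + 16) was computed, so a change is on that scale and understates those of low signals. One model of the 6 groups over the 18 arrays was fitted with limma 3.58.1 in R 4.3.3 (lmFit, and eBayes with trend). Tests were two-sided, Benjamini-Hochberg adjusted over all genes tested, with a threshold of 0.05. A second fit held all 19065 probe sets, with no level filter. The number of arrays limits the precision. Background was set for each array at the 90th percentile of its 27 bacterial probe sets without spike-in, and a probe set above it on none of a group's 3 arrays gave only a bound, set against that background or its own signal where higher. The fit was tested on simulated data.

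The members and the 6 lists of other genes of splicing and RNA processing were chosen with earlier results of these data known. The naming rule takes, per time, up to 6 members that changed most in either direction with separate arrays, the 2 of each family with the smallest p, genes whose probe sets passed in opposite directions, up to 3 genes per list, and 12 fixed genes, of which 10 have a probe set of their own. It allows more genes than are named. Chosen after their values were seen were HNRNPA0, SNRPC, SNRPD3, SNRPG and SF3B2 at 24 h, the remaining members at 48 h, those named for the difference between 48 and 24 h, and the single probe sets. Alternatives changed the pseudocount, filter, scaling, summary of probe sets, limma settings, control arrays, a replicate block, a GAPDH covariate or left out arrays. The 48 minus 24 h difference, the fit of probe sets with several genes, and the probe set fit under other scalings and, at 48 h, all its alternatives were added after seeing the data. Equal replicate numbers were not taken as pairs, since no label ties them and the deviations of arrays with one number correlated at -0.18 to 0.02. There were 0 identical arrays.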

Additional observations from a re-analysis of the deposited data

Results flagged for a closer look

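The effect of sarin on SNRPB2, the U2 B″ protein, differed between 3 and 24 h by 1.33 on the log2 scale by limma's test of that difference (adjusted p = 0.0136), from a value of -0.55 at 3 h, which did not pass, to a rise of 0.78 at 24 h. Untreated arrays of this gene were themselves lower at 24 h than at 3 h.

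Between 24 and 48 h, 38 of the 46 splicing factor genes had an effect of sarin that differed by limma's test of the difference itself, 36 lower at 48 h and 2, HNRNPL and SF3A2, higher. The call of SF3A2 was close to the threshold and both turned with spike-ins. Over all genes tested 63.7% differed. Among the 4785 genes in the upper 40% by level, 2077 were lower and 1009 higher.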

How the results depend on the processing

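For single genes and probe sets, 1625 values under an alternative kept their direction and side of the threshold, 168 lost the threshold, 56 gained it and 52 turned. Counts of members past the threshold moved by over 1.5 times as follows. At 3 h the count was 1 against all untreated arrays (0 in the report). At 24 h (7) it was 2 with quantile normalization, 25 with arrays centred on their median, 0 with spike-ins, 4 without a trend, 22 with array weights, 18 on the arrays of 24 h alone, 14 without the 48 h sarin arrays, and 2 to 6 without single arrays. The calls over all genes moved too, to 871 higher and 1156 lower with array weights and 724 and 850 on the 24 h arrays alone. At 48 h (36) the member count was 18 with the GAPDH covariate and 35 to 37 without single arrays. For 24 minus 3 h (1) it was 0 with quantile normalization, 3 with centring, 0 with spike-ins, 2 with array weights, 2 without the 48 h sarin arrays, and 1 to 2 without single arrays. For 48 minus 24 h (38) it was 25 with quantile normalization and 37 to 39 without single arrays. In untreated cells from 3 to 24 h (4) it was 2 with quantile normalization, 19 with centring, 33 with spike-ins, 1 without a trend, 0 on the arrays compared alone, 9 without the 48 h sarin arrays, and 0 to 8 without single arrays. From 3 to 48 h (0) it was 1 with centring, 35 with spike-ins, 2 with array weights, and 0 to 2 without single arrays. Member probe sets at 24 h (8) came to 2 with quantile normalization, 38 with centring, 0 with spike-ins, and 1 to 7 without single arrays; at 48 h (75) to 70 to 74 without single arrays. The cause was not tested.

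Gene values that turned sign are grouped by alternative. With quantile normalization HNRNPK at 24 h was -0.17, and at 48 h HNRNPA1 was 0.22, HNRNPA2B1 0.18, SNRPA 0.44 and SRSF3 0.27; SNRPA for 48 minus 24 h was 0.0053. With centring HNRNPC at 24 h was 0.26, HNRNPUL1 at 48 h -0.18, SRSF10 213594_x_at -0.16 and SF3A2 for 48 minus 24 h -0.26. With spike-ins at 48 h HNRNPL was -0.51, HNRNPUL1 -1.62, HNRNPUL2 -0.67, SF3A2 -1.34, SF3B1 214305_s_at -0.66 and 201070_x_at -1.0, SRSF7 213649_at -0.88 and 211439_at -0.84, SRSF6 206108_s_at -0.48, SF3B3 200688_at -0.60, HNRNPDL 212454_x_at -1.31 and SRSF10 213594_x_at -1.59; for 48 minus 24 h HNRNPL was -0.27 and SF3A2 -1.44, and SRSF11 in untreated cells at 24 h -0.073. With the mean of all probe sets SRSF1 at 3 h was 0.045, HNRNPC at 24 h 0.38, and at 48 h HNRNPA1 0.086, HNRNPUL1 -0.92, SF3B1 0.27, SF3B3 0.17, SRSF6 0.42 and SRSF7 0.28. With probe sets without an x or s suffix SF3B3 was 1.40 and SRSF7 1.17 at 48 h. With the GAPDH covariate HNRNPC was 0.24 and HNRNPK -0.29 at 24 h, and at 48 h HNRNPA1 was 0.36, HNRNPA3 2.15, HNRNPDL 0.16, HNRNPH3 0.068, HNRNPUL1 -0.19, SNRPA1 0.58 and SRSF6 0.11. Against other untreated arrays SRSF1 at 3 h was 0.066 and HNRNPC at 24 h 0.19. Without single arrays HNRNPC ranged from -0.20 to 0.090 and HNRNPK from -0.089 to 0.15 at 24 h, and SNRPA at 48 h was 0.0033 without replicate 2 of sarin.

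With the replicate number as a block 7 members passed at 24 h, with HNRNPA0 lost (adjusted p = 0.0538) and SNRPG gained (0.0399), and 76 member probe sets passed at 48 h. Single genes and probe sets kept all other calls under the block. At 24 h, 5 of the 7 calls were lost without some single array, those other than HNRNPM and HNRNPUL1. The sarin arrays at 48 h had the highest background and 3′ to 5′ ratios of all 18. At 48 h, 9 member probe sets were not above background on any sarin array, 1 on any untreated array and 2 on any of either.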

Other observations

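A further 19 probe sets name a gene of these families beside another gene, a read-through or a pseudogene, and their signal cannot be given to 1 gene. They were read from a limma fit over every probe set but controls, and at 24 h 0 of them passed, with a lowest adjusted p of 0.0797. SRSF2, an SR protein that binds exonic enhancers, shares its 3 probe sets with a microRNA annotated at the same place. At 48 h these changed by -3.34 ± 0.19, -2.87 ± 0.21 and -0.69 ± 0.18, after differences of 0.04, 0.08 and -0.10 at 24 h. The first of them averaged 1537 after sarin at 48 h and 15532 in untreated cells. SRSF9, another SR protein, shares its 2 probe sets with GATC, and these fell at 48 h (-2.23 ± 0.17 and -1.56 ± 0.19).

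SNRPN, the neuronal Sm protein of an imprinted locus, was read by probe sets that went both ways at 48 h. Those shared with SNURF alone fell (-0.85 ± 0.14 and -1.87 ± 0.22). Of those shared with small nucleolar RNA genes, 2 rose, with changes of 1.5 ± 0.23 and 1.22 ± 0.28, and the third, also shared with SNURF, differed by -0.43 ± 0.71. HNRNPA1 with its pseudogenes differed at 24 h by 0.81 ± 0.43 (adjusted p = 0.332) on 1 probe set and by 0.21 ± 0.25 on another. HNRNPA3 with a pseudogene differed at 24 h by 0.48, 0.24 and 0.23 on its 3 probe sets. HNRNPH2 averaged 245.6 after sarin at 48 h, under the background of those arrays, and 1833 in untreated cells.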
